A study of Mus musculus with 11 samples.

Results

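The genes described here are the 4 Id genes (Id1, Id2, Id3 and Id4) and 4 genes that receive or restrain bone morphogenetic protein (BMP) signals (Smad6, Smad7, Bambi and Bmpr1a). They were chosen by name, as 8 of 19938 genes with a probe of a single symbol, and each was measured by 1 probe. Expression had been measured on 11 microarrays, 5 of neural crest, 3 of paraxial mesoderm and 3 of neuroepithelium, all from CD1 outbred mouse embryos at E8.5, with no mutation or treatment named. Cells were cut from frozen sections by laser capture, and their RNA was amplified before hybridisation. The series title speaks of single cells, but the labels give neither the cells per array nor the embryo each came from. The p-values therefore describe array-to-array spread, which may be technical, and would be too small if 1 embryo had given several arrays of a tissue.

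BMP ligands bind receptor pairs that include Bmpr1a, and the receptors activate Smad proteins that enter the nucleus and switch on target genes. Id genes are among the best known of these targets. Their products are helix-loop-helix proteins without a DNA-binding region, which bind E proteins and keep them from pairing with lineage factors such as Twist1. Smad6 and Smad7 are inhibitory Smads, and Bambi is a receptor-like membrane protein without a kinase, so all 3 damp the pathway that induces them. In the early embryo BMP signals act at the border of the neural plate, where neural crest arises, and in the mesoderm beside it.

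Each value is the deposited linear ratio of an array to a reference of its own probe, often but not always close to the median over the arrays. The keratin gene Krt8, for example, was at 30.5 to 36.3 on 6 of the 11 arrays. A ratio near 1 says that an array was close to that reference and gives no expression level, so levels were not set against each other between genes. A ratio of at least 4 is called high here, and one of at most 0.25 low. In these captured samples fewer cells of a type and less RNA per cell cannot be told apart. Of the 8 genes, 4 were high or low on some array (Id1, Id2, Id3 and Bambi), against 24.8% of all 21789 probes, and 4 lay within 2-fold of their reference on all 11 (Id4, Smad6, Smad7 and Bmpr1a), against 71.9%. Id1, Id2 and Id3 were low on some array, against 5.30% of probes, and Id2 and Bambi were high on some array, against 21.0%.

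**Figure D1:**
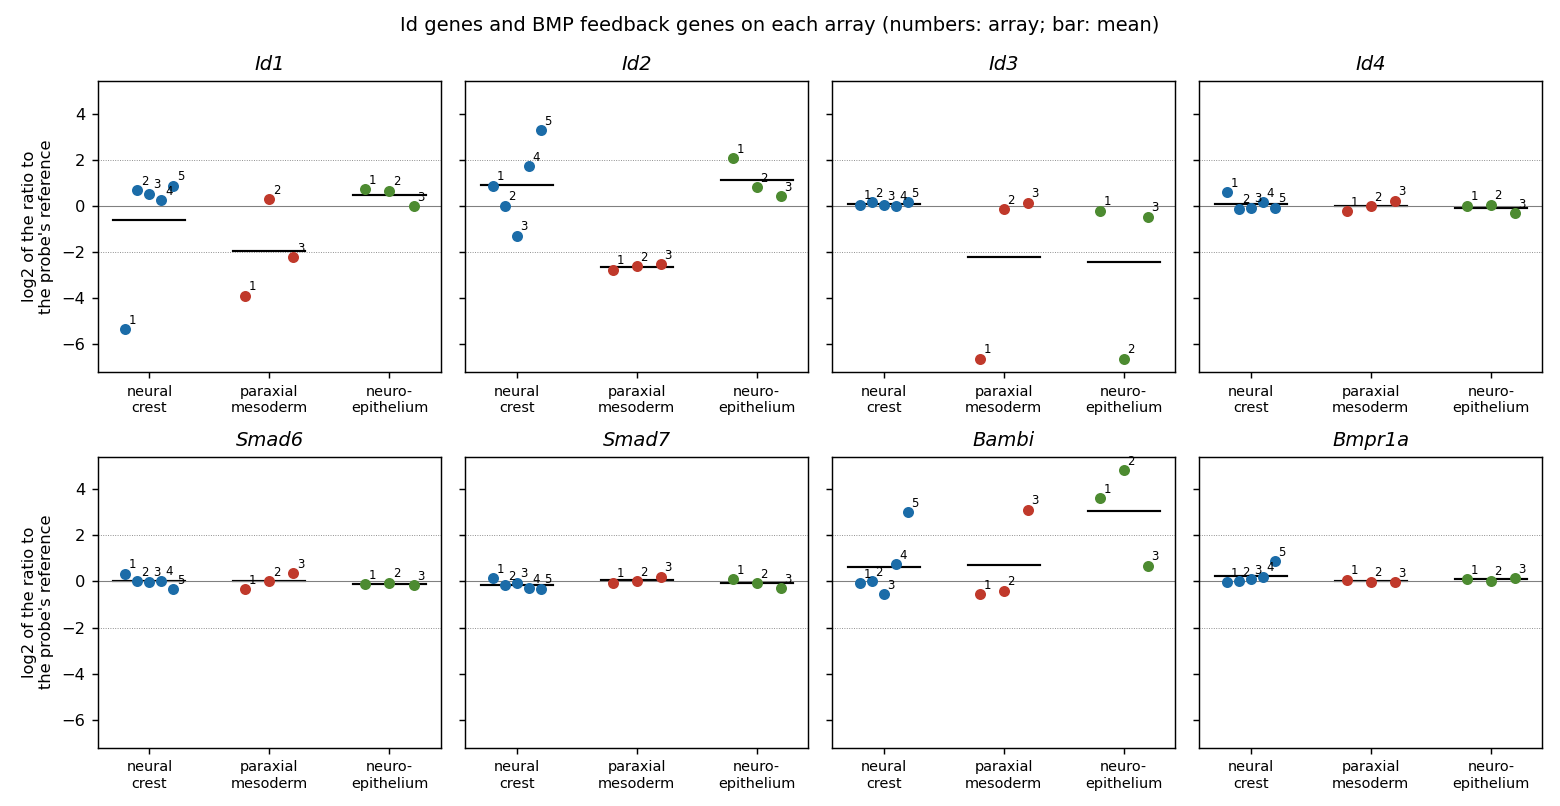
Ratio of each array to the probe's reference on the log2 scale, for the 8 genes in the 3 tissues; each point is an array with its number, the bar is the tissue mean and the dotted lines mark the 4-fold limits. Id2 is low on all 3 paraxial mesoderm arrays, Id1 is low on 1 neural crest and 2 paraxial mesoderm arrays, Id3 is low on 1 paraxial mesoderm and 1 neuroepithelium array, and Id4, Smad6, Smad7 and Bmpr1a stay near 0.

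The 300 bases around the start of 4 of these genes are shown because all are known BMP targets and their ratios behaved differently here. Id2 and Id3 varied widely between arrays, whereas Id4 and Smad6 did not. The sequences are those of RefSeq on GRCm38.p6, from 250 bases before to 50 bases after the start of the gene, which matched 5 of the 8 genes. Id2 lies at chr12:25096043-25096342 on the minus strand, Id3 at chr4:136143572-136143871 on the plus strand, Id4 at chr13:48260866-48261165 on the plus strand and Smad6 at chr9:64022010-64022309 on the minus strand. Capitals mark matches on either strand to GGCGCC, a GC-rich palindrome met in BMP-responsive elements, to GTCTAGAC, the palindromic Smad-binding sequence, to GTCTG, a Smad box, and to CANNTG, the E-box bound by helix-loop-helix dimers.
Id2: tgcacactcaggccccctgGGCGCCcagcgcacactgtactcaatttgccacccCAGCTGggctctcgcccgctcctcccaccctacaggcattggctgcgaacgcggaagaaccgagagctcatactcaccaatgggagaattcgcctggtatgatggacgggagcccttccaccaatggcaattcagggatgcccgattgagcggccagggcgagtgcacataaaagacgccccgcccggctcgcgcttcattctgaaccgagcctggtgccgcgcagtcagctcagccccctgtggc
Id3: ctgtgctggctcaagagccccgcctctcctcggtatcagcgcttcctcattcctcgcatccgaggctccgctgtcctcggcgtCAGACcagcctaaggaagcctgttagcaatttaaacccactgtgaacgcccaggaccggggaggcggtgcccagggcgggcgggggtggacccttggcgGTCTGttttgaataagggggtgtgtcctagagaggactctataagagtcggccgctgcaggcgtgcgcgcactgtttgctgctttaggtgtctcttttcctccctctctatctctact
Id4: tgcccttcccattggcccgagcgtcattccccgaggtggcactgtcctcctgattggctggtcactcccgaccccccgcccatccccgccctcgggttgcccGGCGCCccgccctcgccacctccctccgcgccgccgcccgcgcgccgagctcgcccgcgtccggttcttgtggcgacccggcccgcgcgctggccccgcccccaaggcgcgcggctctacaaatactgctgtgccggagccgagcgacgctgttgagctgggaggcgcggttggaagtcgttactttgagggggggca
Smad6: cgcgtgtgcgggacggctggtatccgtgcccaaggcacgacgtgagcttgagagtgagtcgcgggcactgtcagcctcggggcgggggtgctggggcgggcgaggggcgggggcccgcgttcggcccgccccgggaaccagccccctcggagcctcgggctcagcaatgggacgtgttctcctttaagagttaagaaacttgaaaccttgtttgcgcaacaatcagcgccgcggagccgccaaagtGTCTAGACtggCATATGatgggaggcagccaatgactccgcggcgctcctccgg
No marked matches overlapped each other. Id2 held GGCGCC with its first base 231 bases before the start, and Id4 held it at 148 bases before. The Bmpr1a window (chr14:34502497-34502796, minus strand) held it at 198 bases before. This sequence occurred in 11.9% of the 32851 windows of the same length in the table. GTCTAGAC began 4 bases before the start of Smad6, and 0.213% of all windows held it. Id3 held a Smad box at 167 and at 68 bases before the start, as did 49.6% of windows at least once. An E-box was found in Id2, at 196 bases before the start, and in Smad6, at base 8 after it, against 72.3% of windows. These are matches of letters in short windows, and binding was not measured.

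Id2 (probe 10399691) showed the clearest split between tissues. Its ratios were 1.84, 1, 0.404, 3.31 and 9.71 on the neural crest arrays. The paraxial mesoderm arrays had 0.146, 0.161 and 0.172. On the neuroepithelium arrays they were 4.17, 1.76 and 1.34. All 3 mesoderm arrays were thus low and lay below every array of both other tissues, whereas the crest arrays ranged from below to far above the reference and covered the neuroepithelium values. Mean log2 ratios were 0.92 ± 1.73 in neural crest (SD, n = 5), -2.65 ± 0.12 in paraxial mesoderm (n = 3) and 1.10 ± 0.85 in neuroepithelium (n = 3).

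The Id2 ratio was 11.8-fold higher in neural crest than in paraxial mesoderm (log2 difference 3.56, SE 0.90, interval 1.51 to 5.62) and 13.4-fold lower in paraxial mesoderm than in neuroepithelium (log2 difference -3.75, SE 1.01, interval -6.04 to -1.45). Intervals here and below are unadjusted 95% intervals of a single probe. The intervals and p-values take the spread to be the same in every tissue. For Id2 the SDs were 1.73 in neural crest, 0.12 in paraxial mesoderm and 0.85 in neuroepithelium. Neither difference passed in limma once adjusted over all probes (adjusted p = 1 for both, unadjusted 0.00355 and 0.00505, ranks 34 and 54 of 21789 probes). The 2 comparisons share the mesoderm arrays. Over 18 alternatives the adjusted p ran from 0.88 to 1 and from 0.866 to 1. Crest and neuroepithelium did not differ beyond their spread (-0.18, SE 0.90, interval -2.24 to 1.87), and that sign turned when crest array 2 or 3 or neuroepithelium array 1 was left out (highest 0.37).

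Few probes behaved like Id2 in the mesoderm. Low on all 3 mesoderm arrays were 2 probes (0.00918%), those of Id2 and of Mob4, a kinase-adaptor gene of the Mob family. Mob4 was also low on crest array 3 (0.235) and neuroepithelium array 2 (0.121), so Id2 was the only probe of the table that was low on all 3 and below every other array (0.00459%). This rule, and with it Mob4, was chosen after the values were seen. It cannot find a probe whose reference lies at its own low state, so being the only probe depends in part on the reference. Leaving out mesoderm array 1, 2 or 3, which had nearly equal Id2 ratios, left the difference of neural crest from paraxial mesoderm at 3.50, 3.57 or 3.62. It moved more with crest arrays, to 2.97 without crest array 5 and 4.12 without crest array 3. The difference of paraxial mesoderm from neuroepithelium was -3.27 without neuroepithelium array 1 and -4.09 without neuroepithelium array 3.

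Id1 (probe 10477169) was low on 3 arrays, crest array 1 and mesoderm arrays 1 and 3. The crest arrays had ratios of 0.0244, 1.61, 1.43, 1.18 and 1.83, so array 1 stood far below the other 4. In paraxial mesoderm the ratios were 0.0669, 1.22 and 0.212, low on arrays 1 and 3. The neuroepithelium arrays had 1.65, 1.58 and 0.99, with none low. The log2 means were -0.61 ± 2.66 in neural crest, -1.95 ± 2.11 in paraxial mesoderm and 0.46 ± 0.41 in neuroepithelium. In the order mesoderm, crest, neuroepithelium no neighbours differed beyond their spread. The difference of neural crest from neuroepithelium was -1.07 (SE 1.51, interval -4.49 to 2.36, limma adjusted p = 1), and it was 0.12 without crest array 1 and -0.54 with log2 values floored at 3 below the probe's median. From paraxial mesoderm, neural crest differed by 1.34 (SE 1.51), or 2.53 without that array and 0.36 without mesoderm array 1. Paraxial mesoderm differed from neuroepithelium by -2.40 (SE 1.69, interval -6.23 to 1.42, limma adjusted p = 1), with overlapping arrays. That difference was -1.43 without mesoderm array 1 and -3.52 without mesoderm array 2.

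Id3 (probe 10509163) was either at its reference or at the lowest ratio in the table. Its values on the crest arrays were 1.03, 1.11, 1.01, 1 and 1.12. The mesoderm arrays had 0.01, 0.899 and 1.10, and the neuroepithelium arrays had 0.867, 0.01 and 0.722. Mesoderm array 1 and neuroepithelium array 2 were therefore the low ones, and the remaining 9 arrays lay between 0.722 and 1.12. No smaller value than 0.01 occurs in the table, and whether it is a floor is not known, so the size of these drops is uncertain. It occurred on at least 1 array for 0.262% of probes and on at least 2 arrays for 0.0505%, or 11 probes. On mesoderm array 1 it occurred for Id3 and the imprinted gene Mest alone.

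The crest arrays all exceeded the neuroepithelium arrays for Id3, as they did for 1.41% of all probes. The log2 difference was 2.51 (SE 1.84, interval -1.67 to 6.69, limma adjusted p = 1), and it was 0.41 without neuroepithelium array 2 and 3.63 without neuroepithelium array 1. With log2 values floored at 3 below the median of the probe it was 1.30. Against paraxial mesoderm it was 2.29 (SE 1.84, limma adjusted p = 1) and was 0.08 without mesoderm array 1 and 3.47 without mesoderm array 3. The floor took it to 1.08. Paraxial mesoderm and neuroepithelium differed by 0.22 (SE 2.06, interval -4.45 to 4.89), and that sign turned with single arrays left out (-1.88 without neuroepithelium array 2). Mean log2 ratios were 0.07 ± 0.07, -2.22 ± 3.83 and -2.44 ± 3.64 in neural crest, paraxial mesoderm and neuroepithelium.

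Id4 (probe 10404975), the member of the family best known from neural progenitors, lay between 0.799 and 1.51 on all arrays. The crest arrays had 1.51, 0.918, 0.942, 1.12 and 0.94, the mesoderm arrays 0.855, 0.995 and 1.16, and the neuroepithelium arrays 1, 1.03 and 0.799. The tissues overlapped fully. The differences were 0.19 (interval -0.22 to 0.60) for neural crest from neuroepithelium, 0.10 (-0.31 to 0.51) for neural crest from paraxial mesoderm and 0.09 (-0.37 to 0.55) for paraxial mesoderm from neuroepithelium, all on the log2 scale. A ratio so flat does not show whether Id4 was active everywhere or silent everywhere.

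The Id genes did not drop together on most arrays. Mesoderm array 1 was low for 3 of them (Id1, Id2 and Id3), mesoderm array 3 for Id1 and Id2, and mesoderm array 2 for Id2. Crest array 1 was low for Id1 and neuroepithelium array 2 for Id3, and on the other 6 arrays none was low. Of all probes, 0.601%, 1.16% and 2.50% were low on mesoderm arrays 1, 2 and 3, against 2.77% on crest array 1, 2.19% on neuroepithelium array 2 and 0.34% to 1.67% on the other 6 arrays. Over the 11 arrays Pearson's r between log2 ratios was 0.35 for Id1 with Id2, 0.20 for Id1 with Id3 and 0.23 for Id2 with Id3, as a description of arrays that share tissues and an amplification.

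Markers of other cells were present on some of these arrays. On mesoderm array 1, 8 of 8 measured genes of primitive red cells were high, and the mean log2 ratio over that list ran from -0.10 to 0.10 on the crest arrays, from -0.05 to 5.95 on the mesoderm arrays and from -0.06 to -0.01 on the neuroepithelium arrays. On mesoderm array 2, 5 of 10 surface ectoderm genes were high (Krt8, Krt18, Krt19, Cldn4 and Cldn7), against 0 on array 1 and 1 on array 3. That list averaged -0.15 to 0.67 on the crest arrays, -0.29 to 2.94 on the mesoderm arrays and 2.31 to 3.34 on the neuroepithelium arrays, with 4 to 6 of its genes high on each of the last. On mesoderm array 3, which was low for Id1 and Id2, Krt8 was the only surface ectoderm gene of the 10 that was high (30.5). It was also high on crest array 3 (36.3), mesoderm array 2 (34.4) and the 3 neuroepithelium arrays. Foxa2 (7.64) was high on mesoderm array 3 too, as 1 of 7 measured genes of gut endoderm and notochord. The part of these cells in the Id1, Id2 and Id3 values was not tested.

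The neural crest markers averaged higher on the crest arrays as a list, on arrays 1 and 4 mainly through Snai1. Their mean log2 ratio ran from 0.70 to 2.20 on the crest arrays, above all others (-0.20 to 0.04 on the mesoderm arrays and -0.04 to 0.36 on the neuroepithelium arrays). Of 11 neural crest markers, 5 stayed within 2-fold on every array and 5 were high on some array, with Snai1 alone high on all 5 crest arrays and on no other. Of 10 neuroepithelium markers, 6 stayed within 2-fold and 3 were high on some array. Epcam, an epithelial adhesion gene, was high on the 3 neuroepithelium arrays and on no other. Otx2 was high on mesoderm array 2 (53.6) and neuroepithelium array 3 (112), and Nes on crest array 3 (8.48). The neuroepithelium list averaged 0.53 to 1.12 on its own arrays, overlapping the mesoderm arrays (-0.18 to 0.60) but not the crest arrays (-0.15 to 0.30). On neuroepithelium arrays 1 and 2 Epcam (41.9 and 38.8) was the only gene of the list that was high, so the mean there rested on it. The neural genes Sox1, Sox2, Sox3, Pax6 and Hes5 had 0.679 to 1.27 on the neuroepithelium arrays. The 12 paraxial mesoderm markers all stayed within 2-fold on every array. That list averaged -0.08 to 0.15 on the crest arrays, -0.11 to 0.09 on the mesoderm arrays and -0.07 to 0.11 on the neuroepithelium arrays, so it did not set the mesoderm arrays apart.

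Of the genes that damp BMP signalling, the inhibitory Smads stayed level. Smad6 (probe 10594418), which blocks the Smads that BMP receptors activate, had ratios of 1.26, 1.01, 0.991, 1.03 and 0.789 in neural crest, 0.799, 1 and 1.28 in paraxial mesoderm, and 0.924, 0.97 and 0.891 in neuroepithelium. Smad7 (probe 10456745), which restrains both BMP and TGF-beta receptors, had 1.11, 0.892, 0.965, 0.82 and 0.802 in neural crest, 0.965, 1 and 1.15 in paraxial mesoderm, and 1.08, 0.945 and 0.821 in neuroepithelium. All tissues overlapped for both genes. The widest unadjusted intervals of a tissue difference on the log2 scale were -0.31 to 0.55 for Smad6 and -0.19 to 0.46 for Smad7, both for paraxial mesoderm from neuroepithelium. As for Id4, such ratios hold no information on whether the genes were active or silent throughout.

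Bambi (probe 10453604) was high on arrays of all 3 tissues. The crest arrays had ratios of 0.953, 1, 0.682, 1.68 and 8.07, with array 5 alone high. In paraxial mesoderm they were 0.686, 0.759 and 8.66, with array 3 alone high. In neuroepithelium they were 12.2, 28.7 and 1.60, with arrays 1 and 2 high. Means on the log2 scale were 0.63 ± 1.41 in neural crest, 0.72 ± 2.07 in paraxial mesoderm and 3.04 ± 2.14 in neuroepithelium. The means of neural crest and paraxial mesoderm differed by less than the spread within either.

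The Bambi ratio was 5.33-fold lower in neural crest than in neuroepithelium (log2 difference -2.42, SE 1.25, interval -5.25 to 0.42) and 4.99-fold lower in paraxial mesoderm than in neuroepithelium (-2.32, SE 1.39, interval -5.48 to 0.85). Neither passed in limma (adjusted p = 1, unadjusted 0.0856 and 0.132), and both sets of arrays overlapped. Without neuroepithelium array 2 the differences were -1.52 and -1.42, and without neuroepithelium array 3 they were -3.60 and -3.50. The second was -3.51 without mesoderm array 3. Neural crest and paraxial mesoderm differed by -0.10 (SE 1.25), and by 1.10 without mesoderm array 3. On mesoderm array 3, Nog, a secreted BMP antagonist of the notochord, was also high (9.63), as was Foxa2 (7.64), 1 of 7 measured genes of gut endoderm and notochord. The part of such cells in the Bambi value was not tested.

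Bmpr1a (probe 10418927), the receptor, had ratios of 0.971, 1, 1.07, 1.15 and 1.83 in neural crest, 1.06, 0.989 and 0.983 in paraxial mesoderm, and 1.07, 1.02 and 1.11 in neuroepithelium. Crest array 5 stood above the rest, and it was also the crest array with the highest Id2 and Bambi. Of all probes, 7.33% were high on that array, against 1.97% to 5.6% on the other crest arrays. The log2 difference of neural crest was 0.13 (interval -0.29 to 0.56) from neuroepithelium and 0.21 (-0.21 to 0.64) from paraxial mesoderm, and paraxial mesoderm differed from neuroepithelium by -0.08 (-0.55 to 0.40).

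**Figure D2:**
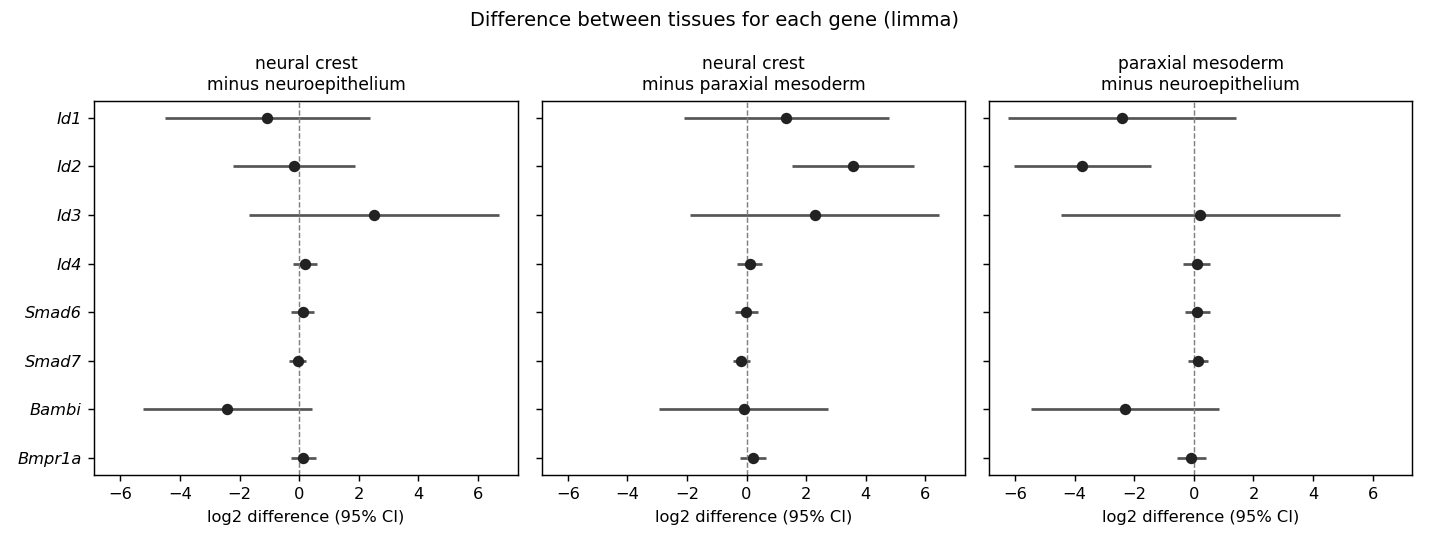
Log2 differences between tissues (points) with unadjusted 95% intervals from limma (lines) for the 8 genes in the 3 comparisons; a positive value means higher in the tissue named first. The Id2 intervals lie on one side of 0 in both comparisons with paraxial mesoderm, from 1.51 to 5.62 and from -6.04 to -1.45, and the other intervals span 0.

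Across the comparisons none of the 8 genes passed in limma after adjustment. For neural crest against neuroepithelium 0.0275% of all probes passed and 604 had an unadjusted p under 0.05. For neural crest against paraxial mesoderm the values were 0.00918% and 624, and for paraxial mesoderm against neuroepithelium 0.0138% and 525. Each of these counts of unadjusted p-values was below a share of 0.05 of the 21789 probes, the share expected if no probe differed. Among the 8 genes, the unadjusted p was under 0.05 for Id2 alone, in both comparisons with paraxial mesoderm. Arrays without overlap were found for Id3 (higher in neural crest than in neuroepithelium), for Id2 (higher in neural crest than in paraxial mesoderm, as were 1.40% of probes) and again for Id2 (lower in paraxial mesoderm than in neuroepithelium, as were 3.97%). No member was without overlap in the opposite directions, where 1.54%, 1.24% and 2.88% of probes were. The median log2 difference over the 8 genes was 0.03, 0.16 and 0.01 in these comparisons, in that order, with 4, 5 and 4 genes above 0, against 49.7%, 50.6% and 48.7% of all probes.

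Other genes of the pathway were looked at from lists of ligands, receptors, transducing Smads, antagonists, other targets and helix-loop-helix partners. Of 71 measured genes 0 passed in any comparison in limma, and 17 (23.9%) were high or low on some array, close to the 24.8% of all probes. Among 10 ligands, Bmp2 was high on mesoderm array 2 (56.9) and neuroepithelium array 1 (10.4), Bmp4 on mesoderm array 2 (19.4) and Bmp7 on neuroepithelium array 3 (4.71). Of 10 receptors and coreceptors, the type II receptor Acvr2b was high on crest arrays 2 (4.44) and 3 (9.04) and on neuroepithelium array 3 (7.44), and the coreceptor Rgmb on crest array 3 (4.64). The shared partner Smad4 was high on crest array 1 (23.9), the array on which Id1 was lowest, and Smad1 on neuroepithelium array 3 (5.50). On mesoderm arrays 1 and 3, where Id1 was also low, Smad4 had 0.909 and 1.13.

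Of 15 other BMP responsive or feedback genes, 9 stayed within 2-fold on all arrays and 5 were high on some array (Msx1, Msx2, Dlx5, Tob1 and Ppm1a). Msx1, a homeobox gene of the neural plate border, had 32.3 on crest array 3, 34.9 on mesoderm array 2, and 24.7, 46.1 and 7.97 on the neuroepithelium arrays, with 0.753 to 1 on the remaining 6. Msx2 (20.0) and Dlx5 (70.4), homeobox genes of the same border, were high on mesoderm array 2, and Dlx5 also on neuroepithelium array 1 (75.1). On the crest arrays neither was high, with up to 2.03 for Msx2 and 2.14 for Dlx5. Mesoderm array 2 was thus high for the ligands Bmp2 and Bmp4 and for the targets Msx1, Msx2 and Dlx5, while Id2 was at 0.161 there, Id1 at 1.22, Id3 at 0.899 and Bambi at 0.759. Surface ectoderm genes were high on the same array, as given above. Neuroepithelium array 1 was high for Bmp2, Msx1, Dlx5, Id2 and Bambi, and for Sostdc1, a secreted BMP antagonist (50.8). Tob1, which binds Smads and restrains their activity, was high on neuroepithelium array 2 (32.6), the array with the highest Bambi and Msx1. Ppm1a, a phosphatase that acts on Smads, was high on crest arrays 2 (28.4) and 5 (5.85), mesoderm array 1 (5.65) and neuroepithelium array 2 (13.7).

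**Figure D3:**
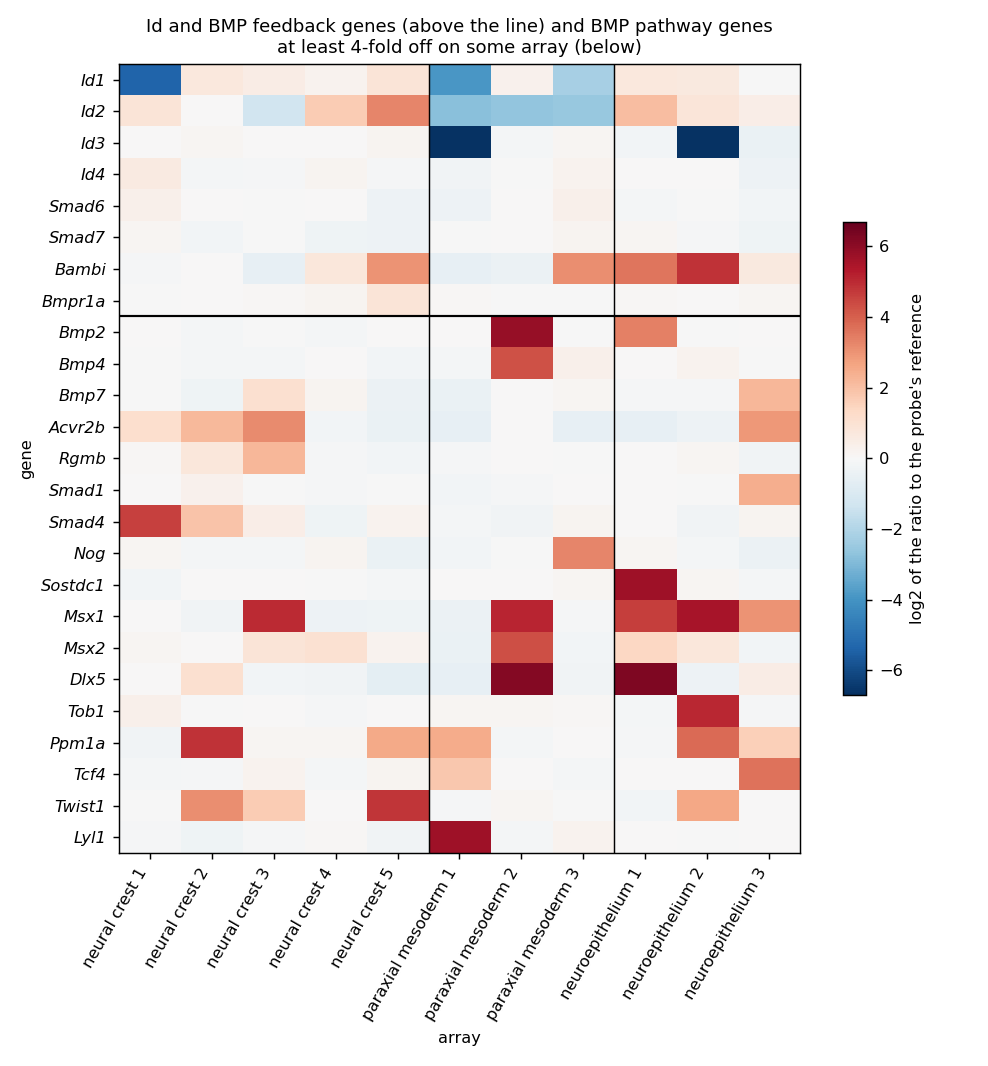
Log2 ratio to the probe's reference (colour) of the 8 genes, above the line, and of the 17 other BMP pathway and helix-loop-helix genes that were high or low on some array, below it; columns are the 11 arrays by tissue. Low ratios (blue) occur in Id1, Id2 and Id3, and mesoderm array 2 combines high Bmp2, Bmp4, Msx1, Msx2 and Dlx5 with a low Id2.

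Id proteins act by binding E proteins, so their genes were examined as well. None of the 3 (Tcf3, Tcf4 and Tcf12) was low on any array, and Tcf4 was high on neuroepithelium array 3 (12.3). Of 15 measured lineage factors that pair with E proteins, 13 stayed within 2-fold on all arrays. Twist1, a mesenchymal factor of the crest, was high on crest arrays 2 (8.79) and 5 (27.3) and on neuroepithelium array 2 (5.92). Lyl1, a blood factor, was high on mesoderm array 1 (52.1), the array with the red cell genes. No gene of the pathway and partner lists was low on any array, and 3 of the 8 genes were, against 5.30% of all probes. Most of the listed genes were flat, and a flat ratio does not show whether there was a signal to lose.

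The genes whose pattern over the 11 arrays was most like that of an Id gene or Bambi were found by Pearson's r of the log2 ratios, among 5606 probes with a log2 range of at least 2. Nearest to Id1 were Ccdc58 (r = 0.871), Cuta (0.867) and Ube2r2 (0.863), each low on crest array 1 (0.0267, 0.0561 and 0.0322). On mesoderm array 1 they had 0.103, 0.358 and 0.124, and on mesoderm array 3 they had 0.0222, 0.247 and 0.313. Nearest to Id2 were the phosphatase subunit gene Ppp4c (0.822), the mitotic kinase gene Bub1 (0.812) and Banp (0.803). Only Ppp4c among them was low in the mesoderm (0.149 and 0.18 on arrays 1 and 3, and 0.606 on array 2), whereas Bub1 (16.2 and 16.7) and Banp (3.25 and 20.7) shared its upper values on crest arrays 4 and 5.

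Id3 had the closest match, the mitochondrial fission gene Fis1 (r = 0.982), followed by the mitochondrial ribosomal protein gene Mrpl11 (0.938) and Zfp428 (0.932). Fis1 had 0.0572 on mesoderm array 1 and 0.038 on neuroepithelium array 2, and 0.745 to 1.60 elsewhere. With Bambi went Zranb1 (0.954), Hmgn5 (0.939) and Bloc1s2 (0.876), all of them high on crest array 5, mesoderm array 3 and neuroepithelium arrays 1 and 2. Such values rest on a few extreme arrays and are given as a description.

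**Figure D4:**
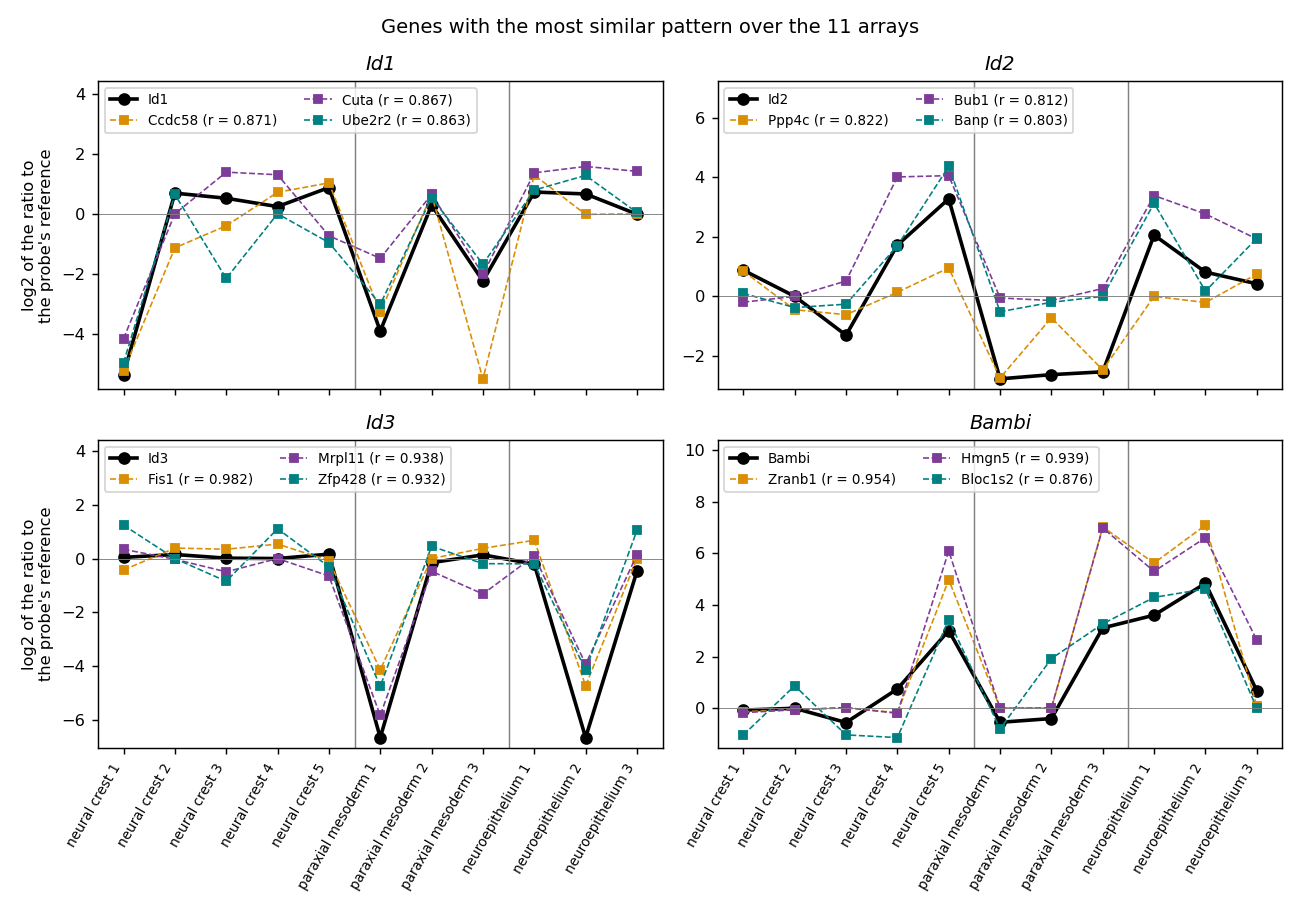
Log2 ratio to the probe's reference on each array for Id1, Id2, Id3 and Bambi (black) and for the 3 genes with the highest Pearson correlation to each (coloured, with r in the key); vertical lines part neural crest, paraxial mesoderm and neuroepithelium. Id3 and Fis1 drop on the same arrays, mesoderm 1 and neuroepithelium 2, and Bambi peaks together with Zranb1 and Hmgn5.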

How the data were processed

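The values are linear ratios deposited by the authors, 1 column per array. The submitters' processing notes name RMA, a log-scale summary of probe intensities, and the genome build mm9, both without a version. The step by which the authors scaled each probe to a reference is not given in those notes. Column medians ran from 0.991 to 1.01, and no value was 0. Intensities were not used here, so signal over background is unknown, and precision is limited by the number of arrays.

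Of 28856 probes with values, the 21789 with 1 symbol in the platform annotation were used (19938 genes), and 21698 matched a RefSeq gene table of GRCm38.p6 by Entrez identifier with 0 symbols changed. The other probes, with no symbol or more than 1, were not used. All 11 columns were matched to samples, and 0 were left unmapped. Arrays were grouped by the tissue in the labels. Ratios were put on the log2 scale with no pseudocount. A model of the 3 tissue means over all arrays was fitted in limma 3.58.1 (R 4.3.3) with lmFit and eBayes, with no intensity trend because ratios carry no intensity. The fit was also run on simulated normal noise with known changes, where only the size of the mean estimated change was checked. Such noise holds no drops of single arrays like those of Id1 and Id3. P-values are two-sided and were adjusted by Benjamini-Hochberg over all 21789 probes of a comparison, with a threshold of 0.05.

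Every one of the 8 genes is named. From the pathway lists, genes were to be named that were at least 4-fold off on at least 3 arrays or on every array of a tissue. Genes high on fewer arrays are named besides, chosen after their values were seen. The 8 genes, the lists and the tests were chosen with earlier results of these data known. Alternatives were an intensity trend, 1 probe per gene, a filter on flat probes, quantile normalization, a floor on low values, robust eBayes, a replicate block and leaving out each array.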

Additional observations from a re-analysis of the deposited data

Results flagged for a closer look

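For the 5 neural crest arrays, the gap of the highest or lowest log2 ratio to its neighbour was divided by the range of the group, and values above Dixon's 95% limit of 0.71 are given here. Of 8 genes tested 2 were above it. The limit flags about 1 in 20 groups of normally spread values, which ratios with drops or rises on single arrays are not. The share of all probes above it was not computed, so no excess among the 8 genes can be read from this. Id1 on crest array 1 had a gap of 0.897 of the range, with a ratio of 0.0244 against 1.18 to 1.83 on the other crest arrays. Bmpr1a on crest array 5 had a gap of 0.728 of the range, with 1.83 against 0.971 to 1.15.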

How the results depend on the processing

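None of the 8 genes passed in any comparison under any alternative, and no direction of an Id2 difference from paraxial mesoderm turned. Of 420 recomputed differences of single genes, 23 changed sign. The count of probes past the threshold was 6 for neural crest against neuroepithelium, 2 for neural crest against paraxial mesoderm and 3 for paraxial mesoderm against neuroepithelium. With an intensity trend it was 2 in the first and 0 in the second, and with quantile normalization 1 in the second. Leaving out 1 array moved these counts to 5 to 20, 1 to 45 and 3 to 40, with the highest counts without neuroepithelium array 2 in the first and without paraxial mesoderm array 3 in the other comparisons. The cause was not tested. Same-numbered arrays did not deviate together (r of deviations -0.145 to 0.0525), so the replicate number is not known to pair arrays. With the replicate number as a block, the counts were 6, 3 and 2, and the log2 differences of Id2 were -1.24, 2.51 and -3.75. The block turned the sign of Bmpr1a (-0.07) and Smad7 (0.07) for neural crest from neuroepithelium and of Smad6 (0.10) for neural crest from paraxial mesoderm.

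With 1 array left out, differences of neural crest from neuroepithelium ran from -0.03 to 0.20 for Bmpr1a, -1.44 to 0.12 for Id1, -0.78 to 0.37 for Id2 and -0.15 to 0.05 for Smad7. Those of neural crest from paraxial mesoderm ran from -0.73 to 1.10 for Bambi, -0.02 to 0.21 for Id4 and -0.17 to 0.17 for Smad6. Those of paraxial mesoderm from neuroepithelium ran from -1.88 to 2.43 for Id3, -0.03 to 0.20 for Id4 and -0.05 to 0.29 for Smad6. Without a signal over background it is unknown which low ratios lie near the detection limit.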
